A study of Homo sapiens with 3 samples.

Results

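The integrins and laminins of the human bladder cancer line 5637 are described here in its parental form and in a gemcitabine resistant derivative. Members were the protein-coding rows of the deposited gene table whose symbol is that of an integrin α chain (ITGA), an integrin β chain (ITGB1 to ITGB8) or a laminin α, β or γ chain (LAMA, LAMB, LAMC). This rule gave 38 of 29960 genes, namely 18 integrin α chains, 8 integrin β chains and 12 laminin chains. The rule itself uses no measured value.

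The study asked which expression differences go with gemcitabine resistance. Messenger RNA was purified on poly-T beads, and read counts per gene were deposited. The parental cells (genotype WT) and the resistant cells (genotype Gemcitabine Resistant) all carry the label Untreated and were grown in RPMI with serum, so the labels give no drug in the medium of any library. By the study's methods each library is a single-cell clone, with 3 clones per group, and resistance was selected by continuous drug exposure, while the sample labels speak of an acute treatment. A clone is 1 lineage of the line, so a difference between clones and a difference between groups cannot be told apart when a group is 1 clone. Of these, 3 libraries carry a label and were used, 1 parental (Parental 1) and 2 resistant (Resistant 1 and Resistant 2). The remaining libraries enter only through the authors' group means, which have no SD or n here.

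The 3 libraries held 14475531, 15836788 and 17461941 counted reads in the order Parental 1, Resistant 1, Resistant 2. A count of 3, taken as the floor, corresponds to 0.213, 0.184 and 0.173 CPM (counts scaled by library size with TMM factors), and covers counting error only. All 8 epithelial markers fixed for the line (EPCAM, CDH1 and 6 keratins) were expressed, with a summed level of 5460, 4307 and 4621 FPKM (reads scaled by transcript length and library size). KRT5, a basal keratin among them, fell from 272 to 9.79 and 13.8 CPM. The 6 leukocyte markers found in the table summed to between 0.373 and 0.770 FPKM, and PTPRC, the pan-leukocyte marker, was at 0.115 to 0.284 CPM. CD14, the one leukocyte marker to reach 1 CPM, had 3, 12 and 18 reads, or 0.213, 0.734 and 1.04 CPM (log2 fold change 2.02, edgeR adjusted p = 0.643). The 3 endothelial markers summed to between 0 and 0.210 FPKM, with CDH5 and TEK at or under the floor and KDR at 0, 7 and 20 reads, or 0, 0.428 and 1.15 CPM (edgeR unadjusted p = 0.0155, adjusted p = 0.346). The 7 fibroblast and smooth muscle markers summed to between 25.7 and 28.6 FPKM, carried by COL1A1 and COL1A2, while LUM was at 0 in the 3 libraries and ACTA2 had 2.49, 6.37 and 4.67 CPM. Of the platelet markers PPBP stayed at or under the floor and GP1BA had 15, 10 and 12 reads.

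Integrins are receptors made of an α and a β chain that bind matrix outside the cell and, through adaptors such as talin, the actin cytoskeleton inside it. Laminins are cross-shaped trimers of an α, a β and a γ chain and are the main adhesive proteins of basement membranes. In stratified and urothelial epithelium, integrin α6β4 bound to a laminin with the chains LAMA3 and LAMB3 holds the hemidesmosome, while α3β1 binds the same laminin in focal adhesions. The αV chain pairs with β1, β3, β5, β6 or β8, and αVβ6 and αVβ8 are known for binding the latent form of TGF-β.

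The β chains ITGB6 and ITGB7 were lower in both resistant libraries and ITGB8, the other latent TGF-β receptor chain, was not, so the sequences before the start sites of these 3 genes are shown. They are the 250 bases upstream of the annotated start, 5′ to 3′ on the strand of the gene, from RefSeq on GRCh38.p14, at chr2:160200273-160200522 (minus strand) for ITGB6, chr12:53207252-53207501 (minus strand) for ITGB7 and chr7:20330650-20330899 (plus strand) for ITGB8. Capitals mark matches, on either strand, to the motifs searched.
ITGB6: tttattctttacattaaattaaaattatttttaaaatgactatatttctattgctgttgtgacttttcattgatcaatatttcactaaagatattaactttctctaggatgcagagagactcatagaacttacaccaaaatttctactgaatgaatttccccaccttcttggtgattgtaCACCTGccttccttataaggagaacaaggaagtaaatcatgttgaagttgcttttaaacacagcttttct
ITGB7: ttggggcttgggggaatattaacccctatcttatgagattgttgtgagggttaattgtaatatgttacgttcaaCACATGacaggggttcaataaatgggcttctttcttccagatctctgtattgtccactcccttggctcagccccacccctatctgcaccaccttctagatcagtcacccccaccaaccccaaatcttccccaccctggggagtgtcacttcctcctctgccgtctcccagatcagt
ITGB8: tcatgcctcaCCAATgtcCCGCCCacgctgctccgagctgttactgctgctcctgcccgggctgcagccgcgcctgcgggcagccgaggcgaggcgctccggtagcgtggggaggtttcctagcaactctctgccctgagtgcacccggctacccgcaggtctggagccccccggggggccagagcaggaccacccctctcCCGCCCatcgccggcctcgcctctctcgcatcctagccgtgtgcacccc

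The E box was searched as CANNTG, the GC box as GGGCGG and the AP-1 site as TGANTCA. The box that nuclear factor Y binds was searched as CCAAT, the core promoter element of many regulated genes as TATAAA and a core bound by OVO-type zinc fingers as CCGTTA. No match overlaps another in these windows. The ITGB6 window was poor in G and C, at 30.0%, with 0 CG dinucleotides and 1 E box, 70 to 65 bases before the start. The ITGB7 window had 49.6% G and C, 2 CG dinucleotides and 1 E box, 176 to 171 bases before the start. The ITGB8 window was of the opposite kind, with 71.2% G and C, 21 CG dinucleotides, a CCAAT match 240 to 236 bases before the start and 2 GC boxes. Over 35116 RefSeq promoters the median was 58.0% and 11 CG dinucleotides. An E box stood in 61.8% of them, a GC box in 42.6%, a CCAAT match in 32.0%, the TATAAA element in 10.7%, an AP-1 site in 6.57% and the OVO-type core in 2.45%, so the matches above are common letters and only describe these windows. Such an entry was found for 26 of the 38 members.

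The mRNA level of each chain was read per transcript length, in FPKM, and protein was not measured here. Each gene has 1 deposited length (10661 bases for LAMA3). A gene read mostly from a shorter transcript would thus have its FPKM and share understated. A CPM of at least 1 in at least 1 library was reached by 27 of the 38 members, and the same number passed the filter on low counts and entered the test. Among α chains ITGA3 led, with 370 FPKM in Parental 1, 340.2 in Resistant 1 and 589 in Resistant 2, which was 63.1%, 60.9% and 69.4% of all α chain FPKM. ITGA6, ITGA2 and ITGAV followed in this order in each library, at 136 to 175, 36.7 to 44.6 and 25.0 to 33.4 FPKM. The range of ITGAV did not overlap that of ITGA2, whose neighbour above, ITGA6, lay well apart. Among β chains ITGB4 stood first, with 348, 261 and 564 FPKM, ahead of ITGB1 at 121 to 135 and ITGB5 at 55.4 to 68.4.

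Among laminin chains, LAMA5 led the α chains with 82.0, 115 and 164 FPKM, ahead of LAMA3 with 32.0, 37.4 and 44.9. LAMB1 was ahead of LAMB3 in Parental 1 (78.3 against 58.0 FPKM). LAMB3 was ahead in Resistant 1 (107 against 87.0) and Resistant 2 (203 against 104). The authors' parental means were 6032 normalized counts for LAMB3 and 7203 for LAMB1, at lengths of 4305 and 5766 bases. Per base LAMB3 was thus already ahead in that mean, so the change of order rests on Parental 1. ITGA3, ITGB4 and LAMA5 led their classes in each of the 3 libraries.

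The 11 members below this level were ITGA4, ITGA8, ITGA9, ITGA11, ITGAD, ITGAL, ITGAM, ITGAX, ITGB3, LAMB4 and LAMC3. Their highest value in any library was 0.497 CPM (ITGA4 in Parental 1), and 6 of them had 3 reads or fewer in each library. They include most of the leukocyte integrin α chains (ITGAD, ITGAL, ITGAM, ITGAX), while ITGB2, the β chain with which those pair, was read at 18.2 to 71.2 CPM. ITGB3 had 1, 0 and 7 reads, so the β3 partner of αV was not detectable above the floor in Parental 1 and Resistant 1.

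**Figure D1:**
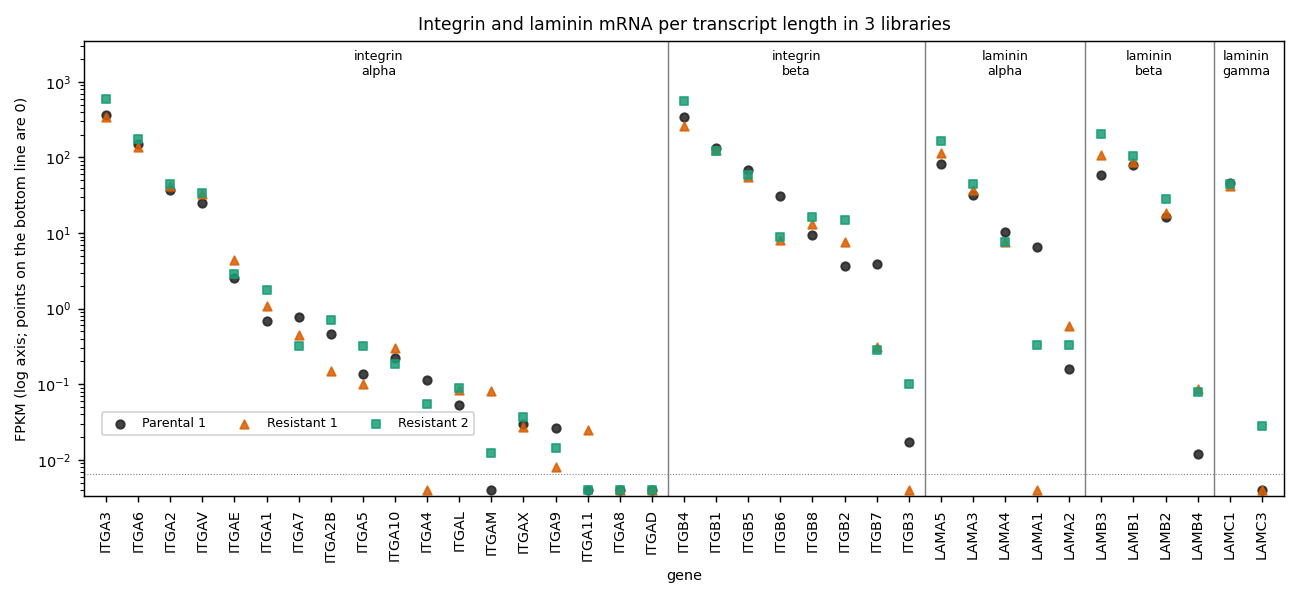
Level of 37 of the 38 members in FPKM (log axis) in Parental 1 (circles), Resistant 1 (triangles) and Resistant 2 (squares), ordered by class and by highest value, with points under the dotted line at 0. ITGA3, ITGB4 and LAMA5 stand highest in their classes, and ITGB6, ITGB7 and LAMA1 show the parental point apart from and above the resistant points.

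Expression in the resistant and parental groups was then compared gene by gene. In edgeR's quasi-likelihood fit over 15643 genes, 3 of the 27 tested members were called at an adjusted p under 0.05, against 0.876% of all genes tested. All 3, ITGB6, ITGB7 and LAMA1, were lower in the resistant libraries (0.582% of all genes were called lower and 0.294% higher), and 0 were called higher. An unadjusted p under 0.05 was reached by 6 members, against 9.7% of all genes, the other 3 being ITGB2, LAMB3 and LAMA2, each with higher values in the resistant libraries. Over the 27 members the fitted log2 fold change was above 0 in 18 and below 0 in 9, with a median of 0.23, beside 0.03 over all genes. Of all 15643 genes tested, 8181 were above 0 and 7462 below. DESeq2 called 2 members, ITGB6 and ITGB7, beside 1.63% of all genes. The spread within a group behind these p-values came from the 2 resistant libraries alone, and the lone parental library was assumed to vary like them. In edgeR a gene's own spread had 1 degree of freedom, beside 8.94 taken from the spread of all genes tested. Each edgeR p-value thus rests mostly on spread pooled over genes. The study calls its clones independent, but its methods describe a single resistant line made by rising drug exposure. The resistant clones may thus share their selection history, and the p-values measure only the spread between these samples, pooled in this way. In bulk RNA, fewer cells making a transcript and less transcript per cell cannot be told apart.

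ITGB6 (ENSG00000115221, chromosome 2 of hg19, the build in the submitters' notes, 160956177 to 161128399, minus strand) encodes the epithelial β6 chain, which pairs with αV only. It had 148 CPM in Parental 1, 37.0 in Resistant 1 and 41.3 in Resistant 2. The resistant libraries were near each other and both below the single parental library, as was so for 34.7% of all expressed genes. ITGB6 fell by 1.92 ± 0.334 (SE) on the log2 scale, with an edgeR adjusted p of 0.0297. The authors' group means, which by the study's methods take in further clones, were 2308 normalized counts for the parental and 716 for the resistant group, a log2 ratio of -1.69. The call was lost when only genes with a CPM of at least 1 in 2 libraries were tested (edgeR adjusted p = 0.110), a fit in which 12 genes in all were called. Genes within 5 Mb of ITGB6 had a median log2 fold change of -0.30.

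ITGB7 (ENSG00000139626, hg19 chromosome 12, 53585102 to 53601091, minus strand) encodes the β7 chain, the partner of α4 and αE that is best known from lymphocytes of the gut. Parental 1 held 163 reads, or 11.6 CPM, while Resistant 1 and Resistant 2 held 14 reads each, or 0.857 and 0.807 CPM. The resistant libraries were 13.5-fold and 14.3-fold below the parental one. ITGB7 fell by 3.79 ± 0.525 on the log2 scale (edgeR adjusted p = 0.00991), and DESeq2 gave an adjusted p of 0.000427. The authors' means were 134 and 12.8 normalized counts, a log2 ratio of -3.30. With a CPM of at least 1 required in 2 libraries, ITGB7 was no longer in the fit. Of its α partners, ITGA4 was at or under 0.497 CPM in the 3 libraries. ITGAE, the αE chain, had 9.94, 16.7 and 11.1 CPM, a log2 fold change of 0.48 ± 0.450 that did not pass the test (edgeR adjusted p = 0.850), and GSG2 lies within it on the opposite strand with 171 to 227 reads. Genes within 5 Mb of ITGB7 had a median of -0.53. The leukocyte markers given above were at or under 0.306 CPM in each library except CD14, which was at 0.213 CPM in Parental 1 and higher in the resistant libraries.

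LAMA1 (ENSG00000101680, hg19 chromosome 18, 6941743 to 7117813, minus strand) encodes the α1 chain of the laminin of embryonic basement membranes. It had 991 reads in Parental 1, 0 in Resistant 1 and 59 in Resistant 2, or 70.4, 0 and 3.40 CPM. Resistant 1 was at least 383-fold lower than Parental 1, taking 3 counts for its 0, and Resistant 2 was 20.7-fold lower. The resistant clones lay on the same side of the parental library but differed from each other far more than they did for ITGB6 and ITGB7. LAMA1 fell in the edgeR fit (log2 fold change -5.35 ± 1.03, adjusted p = 0.0478), a value that rests on a library at 0. DESeq2 did not call it (unadjusted p = 0.287, adjusted p = 1.00), nor did edgeR when a CPM of at least 1 was required in 2 libraries (adjusted p = 0.167). The authors' means were 1540 and 372 normalized counts, a log2 ratio of -2.05. Their resistant mean was above the 0 and 59 reads of the labelled resistant libraries, so a resistant clone without a label must lie above that mean. The near loss of LAMA1 is therefore shown for the labelled resistant clones and not for every resistant clone. The median of genes within 5 Mb was 0.03.

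**Figure D2:**
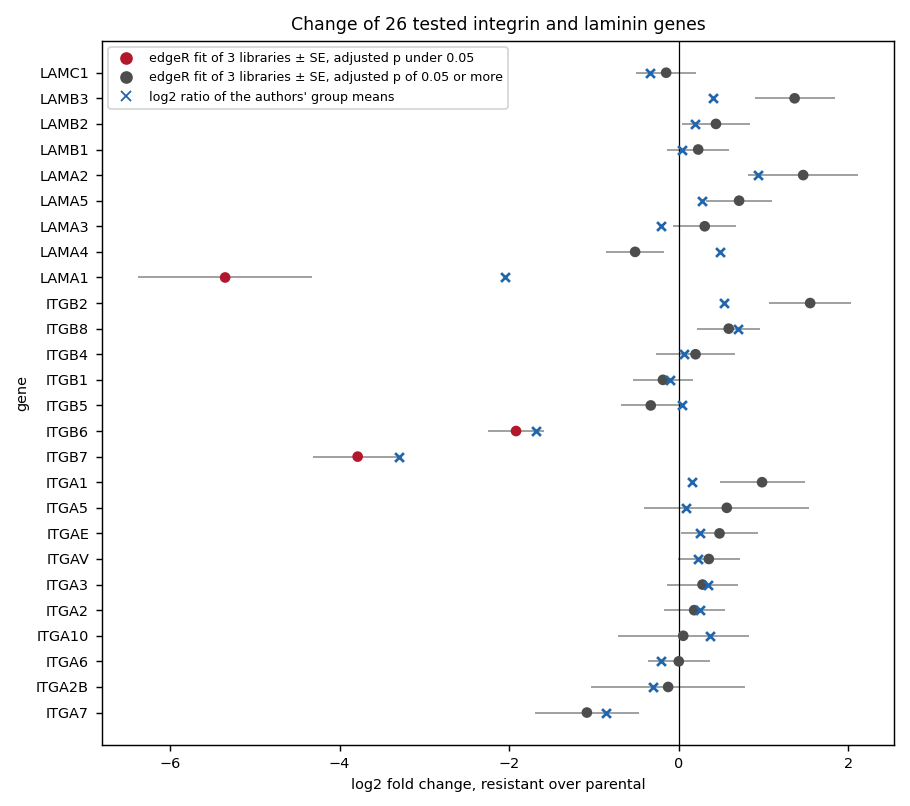
Log2 fold change, resistant over parental, of 26 of the 27 tested members in the edgeR fit of 3 libraries (dots, bars are ± SE, red where the adjusted p is under 0.05), with the ratio of the authors' means on the same scale (crosses). ITGB6 and ITGB7 have dot and cross close together, at -1.92 and -1.69 and at -3.79 and -3.30, while those of LAMA1 are far apart, at -5.35 and -2.05.

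The other chains that can pair with αV showed no called change. ITGAV had 181, 227 and 236 CPM (log2 fold change 0.35 ± 0.362, edgeR adjusted p = 0.874). ITGB5, the β5 chain of the vitronectin receptor, had 307, 235 and 254 CPM (-0.33 ± 0.354, edgeR adjusted p = 0.886). ITGB8 had 54.4, 71.1 and 92.7 CPM, higher in both resistant libraries, and a log2 fold change of 0.59 ± 0.370 that did not pass the test (edgeR adjusted p = 0.699). The authors' means of ITGB8 were 816 and 1326 normalized counts, a log2 ratio of 0.70. An antisense transcript, CTA-293F17.1, lies over ITGB8 with 17, 40 and 41 reads, and it is not stated whether counting used the strand.

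Seen per length, the makeup of the β chains that pair with αV (β1 left out, since it has many other partners) shifted between them. ITGB6 made up 28.4% of their summed FPKM in Parental 1 and 10.6% in both Resistant 1 and Resistant 2. ITGB8 made up 8.74%, 17.1% and 19.9%, and ITGB5 62.9%, 72.2% and 69.4%. In Parental 1 ITGB6 stood above ITGB8 (30.8 against 9.50 FPKM) and in both resistant libraries below it (8.17 against 13.2, and 8.78 against 16.5). No test was made of these shares, which follow from the values above.

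**Figure D3:**
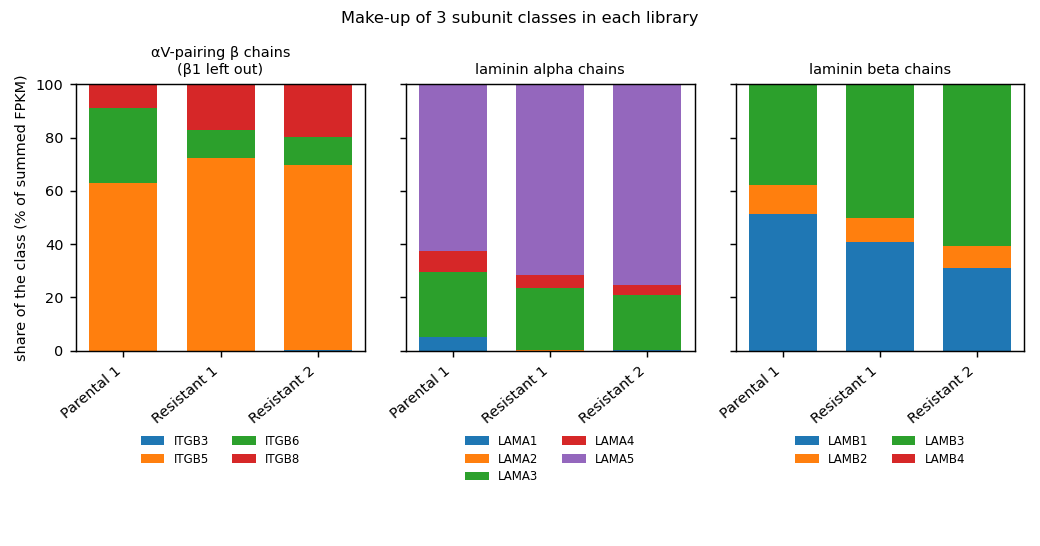
Share of the summed FPKM of 3 subunit classes (y axis, %) taken by each chain in Parental 1, Resistant 1 and Resistant 2. ITGB6 takes 28.4% of the αV-pairing β chains in Parental 1 and 10.6% in both resistant libraries, and LAMB3 takes 38.0%, 50.3% and 60.6% of the laminin β chains. Each bar is a single library, so the parental bar does not stand for the parental group.

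The chains of the hemidesmosome receptor were high and not called. ITGA6 had 913, 781 and 1046 CPM, the parental library lying between the resistant ones (log2 fold change 0.00099 ± 0.368, edgeR adjusted p = 1.00), and the sign of so small a value changed with the tool. ITGB4 had 2116, 1495 and 3362 CPM, again with Parental 1 in the middle (0.20 ± 0.467, edgeR adjusted p = 0.965). Resistant 2 was 2.25-fold above Resistant 1 for ITGB4, with a 95% exact interval of counting error of 2.22 to 2.28. GALK1, on the opposite strand, overlaps ITGB4 with 151, 352 and 445 reads.

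For α3β1, the laminin receptor of focal adhesions, ITGA3 had 2082, 1807 and 3251 CPM (0.28 ± 0.414, edgeR adjusted p = 0.930) and ITGB1, the common β1 chain, 525, 463 and 461 CPM (-0.19 ± 0.352, edgeR adjusted p = 0.949). ITGB1 was nearly level, its resistant libraries having a ratio of 0.996 (95% interval 0.965 to 1.03). ITGA2, the collagen receptor chain, had 297, 320.3 and 353 CPM (0.18 ± 0.360, edgeR adjusted p = 0.952). ITGA5, the fibronectin receptor chain, was scarce, with 10, 8 and 28 reads, or 0.710, 0.490 and 1.61 CPM, and its log2 fold change of 0.57 ± 0.975 was smaller than its SE. The collagen receptor chain ITGA1 had 5.75, 8.57 and 14.2 CPM (0.98 ± 0.502, edgeR adjusted p = 0.588). PELO lies within ITGA1 on the same strand with 423 to 500 reads, so the counting of ITGA1 is uncertain. By the authors' means of 121 and 134 normalized counts, the log2 ratio of ITGA1 was only 0.16. ITGA7, a laminin receptor chain of muscle, had 3.48, 1.90 and 1.38 CPM (-1.08 ± 0.614, edgeR adjusted p = 0.655). BLOC1S1 overlaps ITGA7 on the opposite strand with 14, 17 and 14 reads, beside 49, 31 and 24 of ITGA7 itself. Genes within 5 Mb of ITGA7 had a median of -0.54. ITGA10 and ITGA2B had at most 1.53 and 2.36 CPM, with log2 fold changes of 0.05 and -0.12. Of the 10 tested α chains 0 were called, and 0 had an unadjusted p under 0.05, in edgeR as in DESeq2. Over all genes 0.876% were called in edgeR and 1.63% in DESeq2, and 9.7% and 7.03% had an unadjusted p under 0.05.

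ITGB2, the β chain of leukocyte integrins, was the integrin with the largest upward value. It had 256, 577 and 1235 reads, or 18.2, 35.3 and 71.2 CPM. Both resistant libraries were above Parental 1, and Resistant 2 was 2.02-fold above Resistant 1 (95% interval 1.82 to 2.23). The log2 fold change of 1.55 ± 0.481 did not pass the test (edgeR unadjusted p = 0.00923, adjusted p = 0.273), except when no filter on low counts was applied (adjusted p = 0.0211). The antisense gene ITGB2-AS1 overlaps it with 26, 69 and 135 reads, a log2 fold change of 1.70 ± 0.628 (edgeR adjusted p = 0.394), and it is not stated whether counting used the strand. The authors' means were 383 and 556 normalized counts, a log2 ratio of 0.54. The α chains ITGAD, ITGAL, ITGAM and ITGAX were at or under 0.461 CPM in all 3 libraries. The leukocyte marker CD14 was, like ITGB2, higher in both resistant libraries, at 0.213, 0.734 and 1.04 CPM, and its part in the values of ITGB2 was not tested.

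LAMA3 and LAMB3, chains of the laminin of hemidesmosomes, had values above the parental level in both resistant libraries, and neither was called (edgeR and DESeq2). LAMB3 had 257, 446 and 879 CPM, so that Resistant 1 was 1.74-fold and Resistant 2 was 3.42-fold above Parental 1. Its log2 fold change was 1.37 ± 0.473 (edgeR unadjusted p = 0.0162, adjusted p = 0.347; DESeq2 adjusted p = 0.149). LAMA3 had 351, 386 and 482 CPM (0.31 ± 0.370, edgeR adjusted p = 0.907). By the authors' means the differences were smaller, with log2 ratios of 0.41 for LAMB3 and -0.21 for LAMA3.

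The laminins of LAMA5 with LAMB1 or LAMB2 and LAMC1 are those of mature basement membranes. By the authors' means the log2 ratio of LAMA5 was 0.27, smaller than in the fit. Genes within 5 Mb of LAMA5 had a median of 0.32. DLD overlaps LAMB1 on the opposite strand with 1125, 1583 and 1264 reads. LAMA5 had 963, 1272 and 1883 CPM, both resistant libraries being higher (0.71 ± 0.390, edgeR adjusted p = 0.634), with ADRM1 overlapping it on the opposite strand at 1196 to 1828 reads. LAMB1 had 464, 486 and 602 CPM (0.23 ± 0.367, edgeR adjusted p = 0.938). LAMB2 had 96.5, 101 and 160.3 CPM (0.44 ± 0.402, edgeR adjusted p = 0.844). LAMC1 differed little, with 372, 320.0 and 352 CPM (-0.15 ± 0.355, edgeR adjusted p = 0.965). The α4 chain, LAMA4, which is typical of vessels and mesenchyme, had 69.5, 47.7 and 49.5 CPM (-0.51 ± 0.339, edgeR adjusted p = 0.719), while the authors' means went the other way, from 649 to 909 normalized counts.

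LAMA2, the α2 chain of muscle and nerve laminins, was the one member at least 2-fold higher in both resistant libraries. It had 22, 90 and 55 reads, or 1.56, 5.51 and 3.17 CPM, so Resistant 1 was 3.52-fold and Resistant 2 was 2.03-fold above Parental 1. The log2 fold change of 1.47 ± 0.651 did not pass the test (edgeR adjusted p = 0.505), at a level that remained low. By this simple measure 1 of 27 expressed members was at least 2-fold higher in both resistant libraries, beside 4.51% of all expressed genes, and 3 were at least 2-fold lower (ITGB6, ITGB7, LAMA1), beside 3.45%. Of the 27 members, 13 were higher than Parental 1 in both resistant libraries and 8 lower in both, against 35.0% and 34.7% of all expressed genes, and in the remaining 6 the parental library lay between them.

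Within classes, LAMB3 made up 38.0%, 50.3% and 60.6% of laminin β chain FPKM and LAMB1 51.2%, 41.0% and 31.0%. Among α chains LAMA5 took 62.5%, 71.6% and 75.5%, LAMA3 24.4%, 23.3% and 20.7%, and LAMA1 5.04%, 0% and 0.150%.

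The 2 resistant clones also differed from each other. At least 2-fold from Parental 1 were 5 of 27 members in Resistant 1, beside 13.9% of all expressed genes, and 10 in Resistant 2, beside 17.6%. In Resistant 1 these were 1 higher (LAMA2, beside 6.83% of all expressed genes) and 4 lower (ITGA2B, ITGB6, ITGB7 and LAMA1, beside 7.1%). In Resistant 2 they were 6 higher (among them ITGA1, ITGA5, ITGB2, LAMA2 and LAMB3, beside 10.1%) and 4 lower (ITGA7, ITGB6, ITGB7 and LAMA1, beside 7.46%). Resistant 2 was at least 1.5-fold above Resistant 1 in 9 tested members, beside 17.3% of all genes tested, and Resistant 1 at least 1.5-fold above Resistant 2 in 3, beside 13.7%. The log2 ratio of Resistant 2 over Resistant 1 was 1.17 for ITGB4, 1.01 for ITGB2, 0.98 for LAMB3, 0.85 for ITGA3 and 0.57 for LAMA5, beside a median of 0.04 over the 2410 genes with a mean of at least 100 CPM. ITGB2, at 18.2 to 71.2 CPM, lies below that level, and the median over all genes tested was -0.01. The ratios come from single libraries and carry no test.

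**Figure D4:**
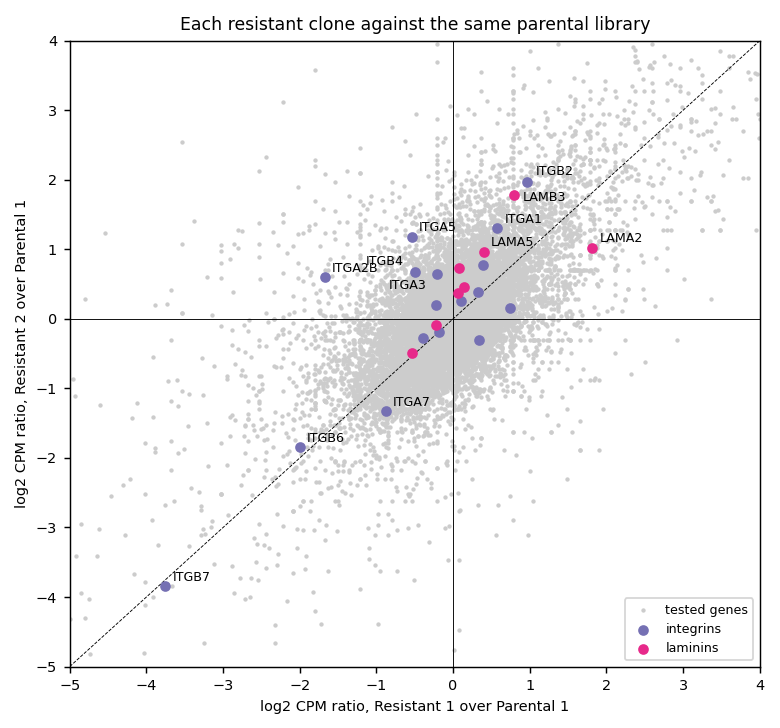
Log2 CPM ratio to Parental 1 of Resistant 1 (x axis) and Resistant 2 (y axis) for tested genes (grey) and for integrins and laminins (coloured), with the line of equal ratios dashed. Both axes share the same parental library, and LAMA1, at 0 in Resistant 1, has no point. ITGB6 and ITGB7 lie on the dashed line far below 0, while LAMB3, ITGB2, ITGB4 and ITGA3 lie above the line.

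The difference between the clones moved with the base composition of transcripts. Over all tested genes in 10 equal classes of transcript GC content, the median log2 ratio of Resistant 2 over Resistant 1 was -0.17 in the lowest class and 0.47 in the highest. ITGB4 (62.9% GC), ITGB2 (61.4%), LAMB3 (59.5%), ITGA3 (59.2%) and LAMA5 (65.3%) lie in the upper 2 classes. After subtraction of the median of the same class, the log2 ratio was 0.70 for ITGB4, 0.67 for ITGB2, 0.64 for LAMB3, 0.51 for ITGA3 and 0.09 for LAMA5. The part of base composition in the remaining differences was not tested. The same subtraction left the resistant over parental values of ITGB6, ITGB7 and LAMA1 at -1.91, -3.91 and -5.34.

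**Figure D5:**
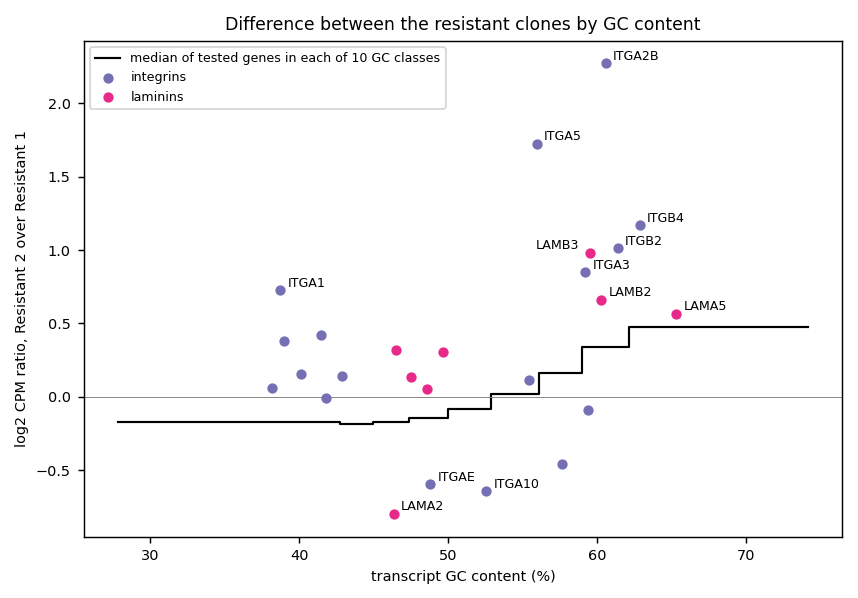
Log2 CPM ratio of Resistant 2 over Resistant 1 (y axis) against transcript GC content (x axis, %) for 25 tested members, with the median of all tested genes in each of 10 GC classes as a stepped line. LAMA1, at 0 in Resistant 1, has no point. The line goes from -0.17 in the lowest class to 0.47 in the highest, and ITGB4 lies above it at 62.9% GC.

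The genes around these receptors and ligands were read from lists of 101 genes, of which 94 were tested. Only BCAM was called in edgeR, which is 1 of 94 beside 0.876% of all genes, and 11 had an unadjusted p under 0.05, beside 9.7%. The median log2 fold change of the 94 was -0.04, with 45 above 0 and 49 below. BCAM, a surface receptor that binds the laminin α5 chain, had 132 CPM in Parental 1, 39.3 in Resistant 1 and 26.1 in Resistant 2. It fell by 2.02 ± 0.366 on the log2 scale (edgeR adjusted p = 0.0356), was called by DESeq2 as well (adjusted p = 0.00097), and lost the call where a CPM of at least 1 was required in 2 libraries (edgeR adjusted p = 0.113). LAMA5 itself, the chain that BCAM binds, was not called, as given above. The other laminin receptors outside the integrins showed no called change, DAG1 (dystroglycan) having 136, 145 and 131 CPM (0.02 ± 0.355, edgeR adjusted p = 0.996).

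Among integrin adaptors and actin linkers, 0 of 28 tested genes were called in edgeR, 6 had an unadjusted p under 0.05 (9.7% of all genes) and DESeq2 called 1, FLNC (1.63% of all genes). Their median was -0.07, with 10 above 0 and 18 below. TLN1 (talin), which activates integrins from inside, had 564, 272 and 314 CPM, lower in both resistant libraries, and did not pass the test (-0.95 ± 0.349, edgeR adjusted p = 0.394). CREB3 overlaps TLN1 on the opposite strand with 793, 559 and 550 reads. VCL (vinculin), PXN (paxillin) and FERMT2 (kindlin-2) had log2 fold changes of 0.05, -0.04 and -0.07, and FERMT1 (kindlin-1) of -0.48. ILK had 1.85, 0.490 and 0.980 CPM, which is uncertain because TAF10 overlaps it on the opposite strand with 1403, 910 and 909 reads. FLNC (filamin C), chosen after its values were seen, had 52.6, 604 and 220.3 CPM, and 2.97 ± 0.622 on the log2 scale (edgeR adjusted p = 0.0689, DESeq2 adjusted p = 1.3e-05).

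Of 25 kinases and signalling genes of focal adhesions 0 were called in edgeR and in DESeq2, and 1 had an unadjusted p under 0.05 in each. Over all genes 0.876% were called in edgeR and 1.63% in DESeq2, and 9.7% and 7.03% had an unadjusted p under 0.05. At these shares a count of 0 calls in so short a list says little about the list. PTK2, the focal adhesion kinase, had 312, 284 and 288 CPM (-0.13 ± 0.354, edgeR adjusted p = 0.971), and the median of the list was -0.06. Of 5 hemidesmosome partners 0 were called by either tool, and 1 had an unadjusted p under 0.05 in each. PLEC (plectin) had 8266, 5701 and 7249 CPM, DST (dystonin) 124, 170 and 158, and COL17A1 (collagen XVII) 631, 390 and 699. Their log2 fold changes were -0.35, 0.40 and -0.21. CD151, the tetraspanin that binds the laminin-binding integrins, had 284, 129 and 148 CPM, lower in both resistant libraries, and a log2 fold change of -1.03 ± 0.349 that did not pass the test (edgeR unadjusted p = 0.0144, adjusted p = 0.331), with POLR2L overlapping on the opposite strand. Of the 5 tetraspanins edgeR called 0 and DESeq2 1, CD81, 2 had an unadjusted p under 0.05 in each (9.7% of all genes in edgeR and 7.03% in DESeq2), and the median was -0.61.

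Of 17 tested ligands of integrins other than laminins 0 were called in edgeR and in DESeq2, and 1 had an unadjusted p under 0.05 in each. Beside this list and the next stand the same shares over all genes, 0.876% and 1.63% called and 9.7% and 7.03% unadjusted. FN1 (fibronectin) had 576, 681 and 612 CPM (0.17 ± 0.358, edgeR adjusted p = 0.959). The median of the list was 0.29, with 14 above 0 and 3 below, beside 8181 above and 7462 below over all genes tested. Some of the 17 had few reads, among them SPP1 with 1, 11 and 3 and THBS4 with 10, 1 and 13. Of 10 basement membrane proteins that bind laminin, among them nidogen, perlecan and collagen IV chains, 0 were called and 0 had an unadjusted p under 0.05 in either tool, with a median of -0.02.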

How the data were processed

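RNA of single-cell clones of the line 5637 was sequenced by a service provider. The authors deposited 1 table that lists, for every gene, raw counts and FPKM by library and a mean signal by group, which the authors averaged from counts scaled by size factors. Columns of the authors' own DESeq2 comparison (fold changes and p-values) were not used. The submitters' processing notes name CASAVA 1.8 and hg19. The aligner, counter and annotation are not given in the sources used here, nor is it stated whether the libraries kept strand. Groups came from sample titles, and 6 columns of per-library values of clones without a label were not used.

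Counts of 3 libraries were tested for resistant against parental by edgeR 4.0.16 (R 4.3.3; filterByExpr, TMM factors of 0.974, 1.03 and 0.995, glmQLFit and glmQLFTest), with Benjamini-Hochberg adjustment over 15643 genes and a threshold of 0.05. The 1 residual degree of freedom came from the resistant pair, and the fit added 8.94 prior degrees of freedom from all genes tested. The common biological coefficient of variation was 28.1%. The SE is the log2 fold change over the root of its F. CPM use the TMM-scaled totals and compare a gene between libraries. FPKM, as deposited by the authors, compare genes within a library. Ratios of the authors' group mean signal used a pseudocount of 1. Alternatives were DESeq2 1.42.0, RLE factors, no filter, a CPM of at least 1 in 2 libraries, a prior count of 2, leaving out each resistant library, the authors' group means and subtraction of the median within 5 Mb. Subtraction of the median of 1 of 10 GC classes (GENCODE 29 transcripts) was chosen after seeing the data. Only the edgeR step was tried on simulated counts. All libraries there were given the same spread, so that trial cannot show how parental clones vary.

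The members, gene lists and markers were chosen with earlier results of these data known. Members named with library values were those called, those at least 2-fold from the parental library in both resistant libraries, and the chains of the main epithelial laminins and integrins. Partners named were those called and 13 fixed ones. Any other gene is named after its values were seen. Of the members, 1 is counted but not reported here. Promoters are from RefSeq, in a build other than that of the table, and no coordinates were carried between builds. Scripts ran in Python 3.11.15 with pandas 2.3.3, scipy 1.17.1, numpy 2.4.6 and, for plots, matplotlib 3.10.9.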

Additional observations from a re-analysis of the deposited data

How the results depend on the processing

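With 1 parental library the spread within that group is unknown, and the count of calls depended on the fit. Over all genes 137 were called in the edgeR fit (46 higher, 91 lower), 245 by DESeq2 (120 higher, 125 lower), 235 with RLE factors, 534 without a filter on low counts and 12 where a CPM of at least 1 was required in 2 libraries. Under the last setting 0 members were called, ITGB7 not being in that fit, and 0 partner genes. Partner calls were 1 in the main edgeR fit, 3 by DESeq2 and without a filter, and 2 with RLE factors. ITGB6 and ITGB7 were called in the other settings that tested them, and LAMA1 in all of those but DESeq2. The cause was not tested. Members at least 2-fold from the parental library in both resistant libraries numbered 4, against 7 at 1.5-fold, 2 at 4-fold and 5 to 10 with 1 resistant library left out, the 10 being without Resistant 1.

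ITGA6 changed sign around 0, at -0.0029 by DESeq2 and with RLE factors and -0.0070 without a filter. By the authors' group means 4 of 27 members (ITGA6, ITGB5, LAMA3 and LAMA4) had the opposite sign to the fit. Leaving out Resistant 2 turned ITGA3, ITGA5, ITGA6 and ITGB4, leaving out Resistant 1 turned ITGA10 and ITGA2B, and the GC subtraction turned ITGB4. No paired analysis was made, because the libraries are separate clones and the numbers in their titles do not pair them.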

Other observations

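Rows outside the rule that carry an integrin name were also read. ITGB1BP1, which binds the tail of the β1 chain, had 53.9, 48.8 and 53.8 CPM in Parental 1, Resistant 1 and Resistant 2 (log2 fold change -0.07 ± 0.347, edgeR adjusted p = 0.986). ITGB3BP, which is also a centromere protein, had 23.5, 26.0 and 20.4 CPM, with a log2 fold change of -0.02 ± 0.376. ITGB1P1, a pseudogene of ITGB1, held 28, 27 and 30 reads, a small number beside the 7397 to 7996 reads of ITGB1. ITGB1BP2, a muscle protein, had 31, 45 and 6 reads, so the resistant clones lay on both sides of the parental library.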
